A study of Mus musculus with 96 samples.

Results

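The intact brain hemisphere of a C57BL/6J mouse was compared with the forebrain dissected from its other hemisphere, on the Affymetrix 1.1ST array. The comparison used 16 of the 96 arrays of the series, 8 whole-brain and 8 forebrain samples, chosen by sample title and paired by mouse number. The 8 mice were males of the inbred strain C57BL/6J, 14 weeks old. A single intraperitoneal injection came 3 h before they were killed. The clozapine group was 4 mice given 4 mg/kg of clozapine, an antipsychotic drug, and the control group was 4 mice given vehicle. The treatments were pooled here, since each mouse gave both samples. The third sample of each mouse was the hindbrain, and the same 3 samples were taken from 8 NOD/ShiLtJ mice. Those arrays were used here as a reference only. Per the study's methods, the cerebellum was discarded before dissection, the olfactory bulbs stayed on, and the hindbrain was lifted out of the hemisphere with forceps so that the cortex was left behind. The sample labelled forebrain was therefore what remained of a hemisphere after that piece was removed. The study's methods state that the side was drawn at random, with equal numbers of right and left hemispheres in each group. Which hemisphere served for which sample was not recorded in the labels, so side and sample type cannot be told apart within a mouse.

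The mouse forebrain holds the cortex, hippocampus, striatum and olfactory bulb, and by development also the thalamus and hypothalamus. The midbrain, pons and medulla hold most neurons that make dopamine, serotonin and noradrenaline, and most neurons that release glycine. Each of these small groups of neurons is marked by a transporter or enzyme that its neighbours lack. Myelin is densest in the fibre tracts of the brainstem and deep forebrain. All values below are log2 array intensities. A difference of 1 is a 2-fold change, a signed difference is always whole brain minus forebrain of the same mouse, and "called" means a false discovery rate (FDR) below 0.05 over all 28310 transcript clusters tested. Because intensities depend on the probes, levels were compared between samples and never between genes.

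The markers followed the labels in the main. Tbr1, a transcription factor of cortical projection neurons, had a mean of 9.61 ± 0.14 in the forebrain samples and 9.22 ± 0.31 in the whole brains (SD, n = 8), and of 5.80 in hindbrain. Glra1 and Slc6a5, of glycine neurons and their targets, averaged 5.51 and 5.46 in forebrain and 10.33 and 10.45 in hindbrain. The thalamic markers went the other way from a textbook forebrain. Prkcd, which is strong in thalamic relay nuclei, had means of 7.56 (forebrain), 9.72 (whole brain) and 10.61 (hindbrain), so this marker was higher in the piece labelled hindbrain than in the piece labelled forebrain.

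Several samples stood apart. The position of each sample between forebrain and hindbrain was measured with 815 transcripts that differed between those regions by a log2 value of at least 1 on the NOD/ShiLtJ arrays. On a percent scale that starts at the mean forebrain of the other 7 mice and ends at their mean hindbrain, the whole brain of mouse BB707 lay at 53.5%, and those of the other 7 mice lay between 14.8% and 33.1%. The mean over 8 mice was 26.5% ± 12.6 (SD), and 22.7% ± 6.85 without BB707. The forebrain of BB703 lay at 15.4%, and the other forebrains between -4.84% and 2.85%. The scale is one of log2 intensity and is not a share of tissue. The 354 of these transcripts that were higher in NOD/ShiLtJ hindbrain placed the whole brains at 42.0% ± 12.0, and the 461 that were lower placed them at 19.0% ± 12.2. In each of the 8 mice the first value was the larger, as the plot of positions shows. In the whole brain of BB708 the cerebellar granule cell gene Gabra6 read 7.71, whereas the other 7 whole brains read 4.07 to 5.17 and the 8 forebrains 3.92 to 4.21. Counts for the gene groups below are also given without these mice where a count changed by more than 1.5 times.

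**Figure D1:**
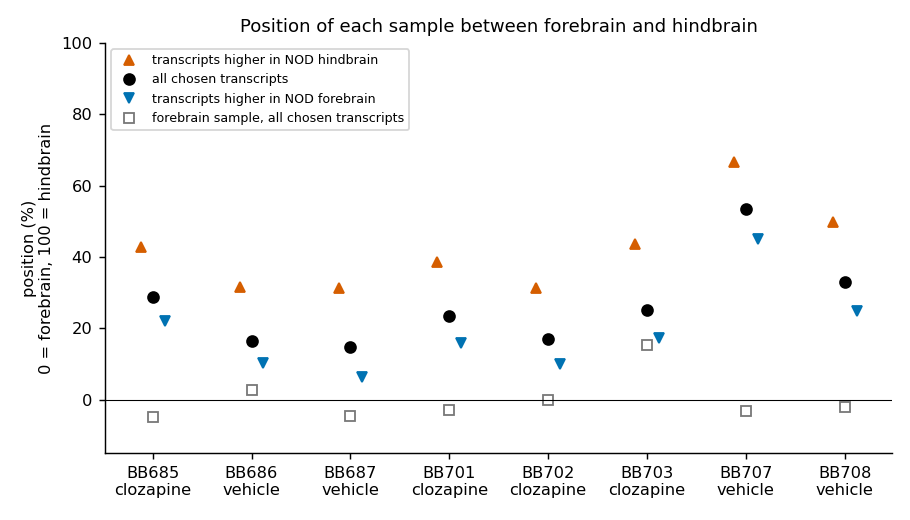
Position of each C57BL/6J sample between mean forebrain and mean hindbrain, in percent of their log2 difference, by mouse and treatment. Black circles are whole brains over all 815 transcripts chosen on NOD/ShiLtJ arrays, triangles the same for transcripts higher (orange) or lower (blue) in NOD/ShiLtJ hindbrain, and open squares the forebrain samples. BB707 lies highest at 53.5%, and the forebrain of BB703 is at 15.4%.

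Whole brain differed from forebrain mainly by transcripts that were higher in whole brain. Of the 28310 transcripts, 1992 were called (7.04%), 1453 higher (5.13%) and 539 lower (1.90%). The higher side also held all of the large differences. A log2 difference of at least 1 was reached by 46 transcripts called higher and by 0 called lower. At 0.5 or more there were 212 called higher, against 5 called lower by as much. The median difference was 0.29 among transcripts called higher, -0.25 among those called lower and -0.01 over all transcripts. The direction was the same in 8 of 8 mice for 924 of those called higher and 273 of those called lower. All 8 whole brains lay above all 8 forebrains for 273 transcripts (0.964%), and all below for 31 transcripts (0.110%). The split of small differences depended on scaling. With each array centred on its median, 1188 were called higher and 1423 lower, and after quantile normalization 1268 and 789. Without BB707 there were 808 higher and 172 lower, without BB708 739 and 108, and without BB703 1509 and 598. In bulk tissue, more cells of a type and more RNA per cell cannot be told apart.

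The largest difference belonged to Glra1, the glycine receptor subunit of adult brainstem and spinal cord. Its forebrain levels were 5.19 at the lowest, 5.39 at the median and 6.32 at the highest, and its whole-brain levels were 7.55, 8.99 and 9.64. The groups did not overlap. The difference was 3.28 (SE 0.21, 8 mice, 9.70-fold, FDR = 1.3e-05). Slc6a5, which carries glycine back into the neurons that release it, had forebrain levels of 5.05, 5.46 and 5.81 and whole-brain levels of 6.14, 9.32 and 9.73, with a difference of 3.23 (SE 0.41, FDR = 0.00068). Its whole brains fell into a high and a low part. In BB687 and BB702 Slc6a5 read 6.70 and 6.14, within 1.05 and 0.51 of the forebrain of the same mouse, and in the other 6 mice it read 8.97 to 9.73. The hindbrain samples of these mice did not share the low values, since Slc6a5 read 9.88 to 11.18 over all 8. Glra1 was lowest in the same whole brains, at 7.78 and 7.55, and so was Mab21l2, a midbrain and brainstem transcription regulator, at 6.08 and 6.32 against 7.31 to 7.99 in the other mice. These genes were seen to share the low mice after their values were known. Of the 9 measured genes of glycinergic transmission, 4 were higher and 0 lower. The other 2 called were the glial glycine transporter Slc6a9 (0.55, SE 0.07) and the receptor subunit Glra3 (0.65, SE 0.14). The receptor's shared subunit Glrb (0.07, SE 0.04) and its anchor Gphn (0.05, SE 0.04) were not called. Without BB703 6 of the 9 were called higher, and 4 without BB707 or without BB708.

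**Figure D2:**
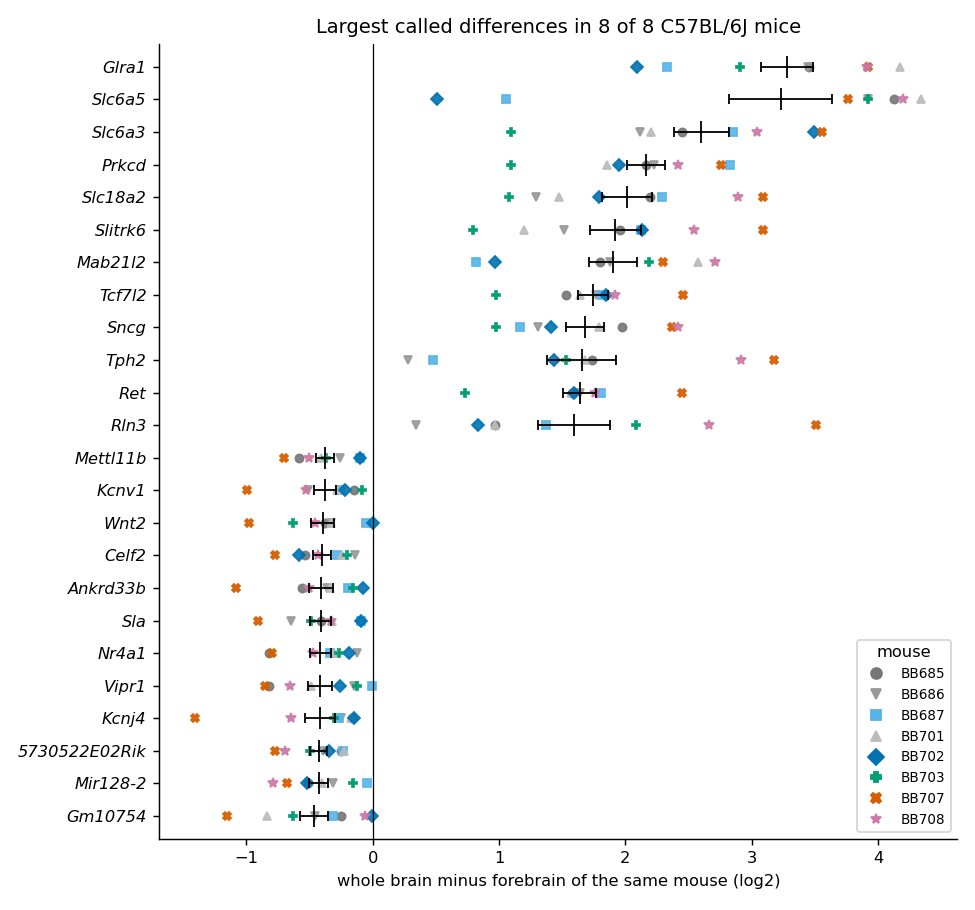
Whole brain minus forebrain (log2) for the 12 largest called differences in each direction that had the same sign in 8 of 8 C57BL/6J mice. Coloured symbols are single mice, and the black bar is the mean with its standard error. Slc6a5 is split between BB687 and BB702, at 1.05 and 0.51, and 6 mice at 3.76 or more. The lowest single value is -1.40, of Kcnj4 in BB707.

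The genes of dopamine neurons came next. Slc6a3, the dopamine transporter of midbrain neurons, had forebrain levels of 5.37, 5.70 and 6.23 (lowest, median, highest) and whole-brain levels of 6.68, 8.65 and 9.57. The groups did not overlap, and the difference was 2.60 (SE 0.22, 6.07-fold, FDR = 4.9e-05). Here BB687 and BB702 were not low. They read 9.09 and 8.86, and the lowest whole brain was that of BB703 at 6.68. Slc18a2, which loads dopamine, serotonin and noradrenaline into vesicles, was higher by 2.01 (SE 0.20), and the growth factor receptor Ret by 1.64 (SE 0.13). Of 17 measured genes of dopamine neurons, 10 were higher and 0 lower. Also called were the nicotinic receptor subunit Chrna6 (1.33, SE 0.15), the transporter-like Slc10a4 (1.22, SE 0.26), the amine-making enzyme Ddc (1.14, SE 0.16) and Aldh1a1 (0.91, SE 0.09). Th, the first enzyme of dopamine synthesis, which olfactory bulb neurons also make, was not called (0.42, SE 0.13, FDR = 0.056), although its difference was above 0 in 8 of 8 mice. The transcription factors of the list were mixed. En1 (0.38, SE 0.10) and En2 (0.56, SE 0.13) were called higher. Nr4a2 was not called (-0.32, SE 0.10) and was lower in 7 of 8 mice. Pitx3 (-0.05, SE 0.06), Foxa2 (-0.02, SE 0.05), Lmx1b (0.04, SE 0.05) and Foxa1 (0.23, SE 0.10) were not called either. Without BB707, and likewise without BB708, 8 of the 17 were called higher.

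Serotonin and noradrenaline genes were also higher, with a wide spread between mice. Tph2, the enzyme that starts serotonin synthesis in the raphe, had forebrain levels of 4.67, 4.87 and 5.23 and whole-brain levels of 5.10, 6.48 and 8.41. The groups overlapped at their edge, because the whole brain of BB686 read 5.10 and the forebrain of BB707 5.23. The difference was 1.65 (SE 0.27, FDR = 0.0036), from 0.28 in BB686 to 3.18 in BB707. The serotonin transporter Slc6a4 had the same extremes of whole-brain level, 5.52 in BB686 and 8.65 in BB707, and a difference of 1.41 (SE 0.27). In BB707 the whole brain was higher than its own hindbrain sample for Tph2, 8.41 against 6.79. Of 13 measured serotonin genes 6 were higher, and of 9 measured noradrenaline genes 6 were higher, with 0 lower in both lists. Without BB707, and likewise without BB708, the counts were 5 and 5, and without BB703 they were 8 and 6. The lists overlap, so their counts are not independent. Slc18a2 was counted in the dopamine, serotonin and noradrenaline lists, and Ddc and En1 in the dopamine and serotonin lists. Gata3, En1, En2 and Tfap2b were counted again among the midbrain and brainstem factors below. Dbh, which turns dopamine into noradrenaline, was higher by 0.73 (SE 0.13), the noradrenaline transporter Slc6a2 by 0.41 (SE 0.09) and the transcription factor Tfap2b by 0.99 (SE 0.12). In the serotonin list Htr1a was not called (-0.14, SE 0.06) and was lower in 7 of 8 mice. Htr1b (0.00, SE 0.11), Htr5b (0.03, SE 0.11) and Lmx1b (0.04, SE 0.05) were not called either. Nor were Gata2 (0.20, SE 0.06), Maob (0.25, SE 0.08) and Gch1 (0.10, SE 0.06). Pnmt (-0.09, SE 0.06), Hand2 (0.02, SE 0.06) and Th of the noradrenaline list were not called. Rln3, a peptide of a small pontine nucleus, ran from 5.97 to 9.08 in whole brain and from 5.42 to 5.76 in forebrain (difference 1.59, SE 0.29, FDR = 0.0055). It was highest in BB707 and BB708, as was Tph2.

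Cholinergic and motor neuron genes were higher for 7 of 15 measured, and lower for 0. Chrna3, a nicotinic receptor subunit of the habenula and brainstem, led with 1.09 (SE 0.13), from 0.51 to 1.86 over the mice. Slc5a7, which takes up choline, was higher by 0.78 (SE 0.13), and the motor neuron filament gene Prph by 0.77 (SE 0.12). Chat, the enzyme that makes acetylcholine and is also found in striatal interneurons, was not called (0.20, SE 0.11). Without BB707 4 of the 15 were called, and without BB703 9.

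Thalamic genes were higher almost throughout. Of 20 measured, 18 were higher and 0 lower, with a median difference of 0.76. The median over these 20 genes was above 0 in each mouse, from 0.57 in BB701 to 1.12 in BB707. Prkcd had forebrain levels of 7.07, 7.43 and 8.54 and whole-brain levels of 9.23, 9.72 and 10.25. The groups did not overlap, and the difference was 2.16 (SE 0.15, 4.47-fold, FDR = 1.6e-05). The forebrain of BB703 was the highest, and this mouse had the smallest difference, 1.09. Tcf7l2, a transcription factor that thalamic neurons keep into adulthood, was higher by 1.74 (SE 0.12), the transcription factor Shox2 by 1.49 (SE 0.09), and Slc17a6, which loads glutamate in thalamic and brainstem neurons, by 1.54 (SE 0.13). Slitrk6, a synaptic adhesion gene, was higher by 1.92 (SE 0.20) with no overlap of the groups. The 2 that were not called were Cacna1g (0.18, SE 0.07) and Pdp1 (0.10, SE 0.05). Without BB707 17 were called higher, and without BB703 or without BB708 18.

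Hypothalamic genes moved in part. Hcrt, the peptide of lateral hypothalamic neurons that sustain wakefulness, had forebrain levels of 5.73, 5.92 and 6.15 and whole-brain levels of 6.38, 7.58 and 8.22. The groups did not overlap, and the difference was 1.50 (SE 0.17, FDR = 0.00037), smallest in BB703 (0.65) and BB708 (0.70). Of 31 measured hypothalamic genes, 9 were higher and 1 lower, and the median was 0.19. The peptide Gal was higher by 0.97 (SE 0.08), Calcr by 0.84 (SE 0.12), Oxt by 0.48 (SE 0.11) and the histamine-making enzyme Hdc by 0.42 (SE 0.07). Gal also stood in the noradrenaline list. Npy, which cortical and striatal interneurons make as well, was the 1 that was lower (-0.37, SE 0.09). Avp (0.06, SE 0.09), Pomc (0.00, SE 0.07) and Crh (-0.09, SE 0.10) were not called. Without BB703 13 were higher, and without BB708 6, with 0 lower in the latter.

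Hcrt, Slc6a3 and Tph2 are shown by their start regions, since each marks a small group of neurons and their differences did not follow the same mice. The 300-base windows come from RefSeq on GRCm38.p6 and run from upstream of the annotated start into the transcript, 5′ to 3′ on the gene's strand. Capitals mark each TATAAA on either strand and each CANNTG, a pattern that reads as the same pattern on both strands. Hcrt lies at chr11:100762882-100763181 on the minus strand, Slc6a3 at chr13:73536497-73536796 on the plus strand, and Tph2 at chr10:115184973-115185272 on the minus strand.
Hcrt: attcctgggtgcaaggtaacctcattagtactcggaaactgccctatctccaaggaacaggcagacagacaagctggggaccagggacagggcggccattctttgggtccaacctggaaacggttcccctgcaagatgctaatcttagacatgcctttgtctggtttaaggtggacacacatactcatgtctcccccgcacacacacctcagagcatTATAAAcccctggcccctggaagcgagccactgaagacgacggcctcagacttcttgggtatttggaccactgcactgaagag
Slc6a3: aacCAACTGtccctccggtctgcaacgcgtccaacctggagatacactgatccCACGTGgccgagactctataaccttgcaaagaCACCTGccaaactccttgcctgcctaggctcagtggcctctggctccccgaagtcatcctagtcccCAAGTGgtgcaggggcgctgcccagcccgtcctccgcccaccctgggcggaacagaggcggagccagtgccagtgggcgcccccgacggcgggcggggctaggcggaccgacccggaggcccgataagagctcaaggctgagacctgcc
Tph2: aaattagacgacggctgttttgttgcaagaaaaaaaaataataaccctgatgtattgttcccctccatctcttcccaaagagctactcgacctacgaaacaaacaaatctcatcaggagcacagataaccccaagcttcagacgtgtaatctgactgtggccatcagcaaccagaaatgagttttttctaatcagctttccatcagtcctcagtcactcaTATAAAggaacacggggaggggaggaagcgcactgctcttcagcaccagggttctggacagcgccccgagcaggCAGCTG
Hcrt and Tph2 each held 1 TATAAA, starting at bases 218 and 221 of the window, and Slc6a3 held none. Among 32817 RefSeq promoters of this length, 13.6% held TATAAA. Slc6a3 held 4 CANNTG, Tph2 1 and Hcrt 0, and 72.3% of all promoters held at least 1. These are matches of letters only.

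**Figure D3:**
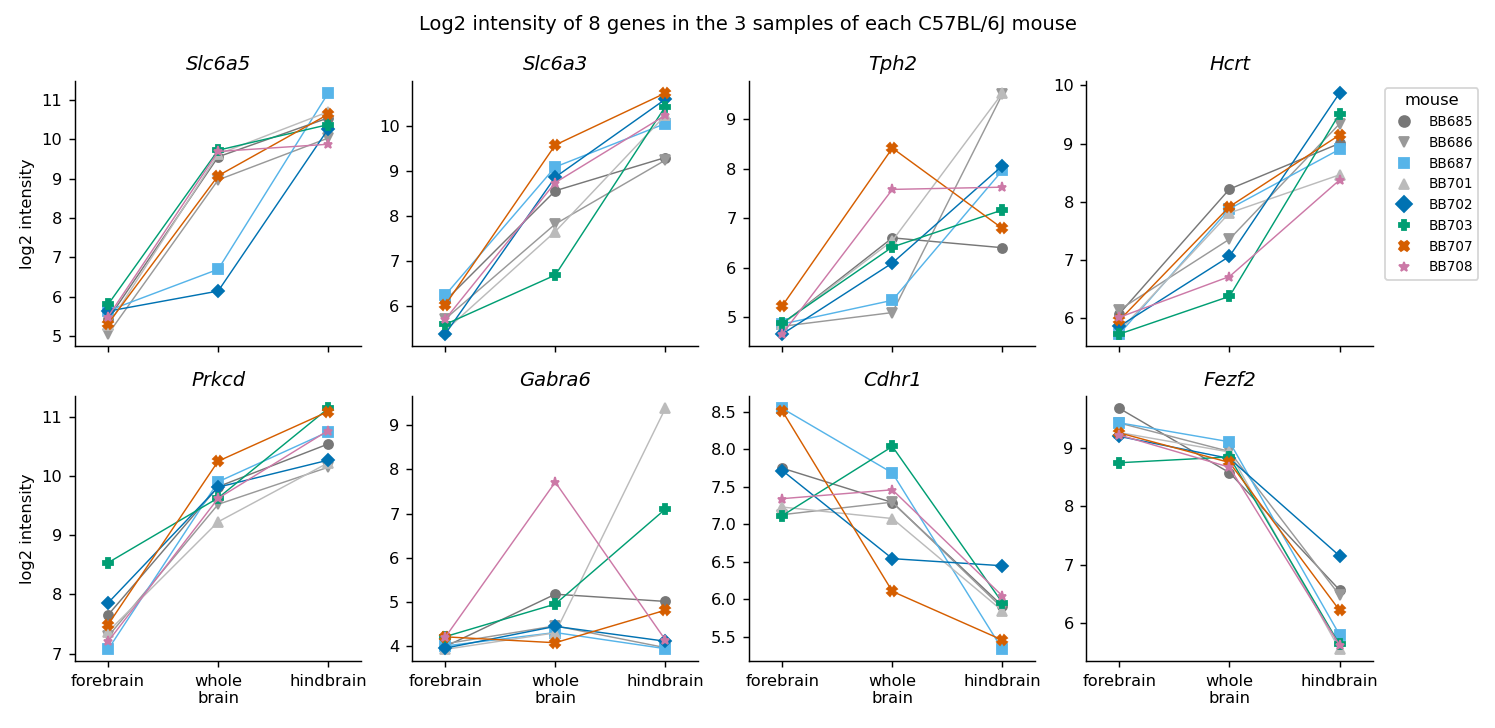
Log2 intensity of 8 genes in forebrain, whole brain and hindbrain of each C57BL/6J mouse, 1 line and symbol per mouse. Slc6a5 is low in the whole brains of BB687 and BB702, Gabra6 is high in the whole brain of BB708 (7.71), Cdhr1 is low in the whole brain of BB707 (6.11), and Fezf2 is lower in whole brain than in forebrain in 7 of 8 mice (mean difference -0.45).

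Among transcription factors of midbrain and brainstem, 18 of 49 measured were higher and 1 was lower, and the median difference was 0.20. Mab21l2 (1.90, SE 0.19), Ebf3 (1.41, SE 0.16), Gata3 (1.08, SE 0.13) and Lhx9 (1.07, SE 0.14) led them, and for the first 3 no whole brain overlapped a forebrain. The 1 lower was Egr2 (-0.36, SE 0.08), which in adult forebrain is an activity-induced gene. Without BB707 12 were higher, and without BB708 12, with 0 lower in the latter. Hox genes, which mark the medulla and spinal cord, were nearly flat. The list was also nearly flat in hindbrain, with medians of -0.05 to 0.15 over the mice against mean forebrain. As a whole it could therefore show little medullary tissue in whole brain. Single members were higher in hindbrain than in forebrain, with means of 5.67 and 4.62 for Hoxa5 and 5.51 and 4.61 for Hoxb5. So were Hoxa2 (4.82 and 4.16) and Hoxb3 (6.32 and 5.69), whereas Hoxc8 was not (4.00 and 4.17). Hoxa5 was the 1 called of 36 measured (0.23, SE 0.06, FDR = 0.036), where 5.13% of all transcripts were called higher. It was not called without BB707 or without BB708, and the median of the list was -0.01. Hoxb3 differed by 0.12 (SE 0.08).

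Genes of cortical neurons were among those lower, with small differences. Of 36 measured transcription factors of the telencephalon, 12 were lower and 0 higher, with a median of -0.22. Fezf2, which specifies deep-layer projection neurons, had forebrain levels of 8.75, 9.27 and 9.68 and whole-brain levels of 8.58, 8.84 and 9.11. The groups overlapped, since the lowest forebrain was that of BB703, and the difference was -0.45 (SE 0.10, lower in 7 of 8 mice, FDR = 0.013). Tbr1 differed by -0.39 (SE 0.10, FDR = 0.033) and Neurod6 by -0.38 (SE 0.08, FDR = 0.013), each lower in 7 of 8 mice. The interneuron factors Dlx1 (-0.34, SE 0.14) and Dlx5 (-0.35, SE 0.15) were not called. Genes of the postsynaptic side and dendrites of forebrain neurons were lower for 15 of 32, higher for 0, with a median of -0.21. The potassium channel genes Kcnh3 (-0.42, SE 0.12) and Kcnj4 (-0.42, SE 0.12) and the dendritic gene Ankrd33b (-0.41, SE 0.09) were among them. The kinase gene Camk2a (-0.11, SE 0.05) and the scaffold gene Dlg4 (-0.08, SE 0.06) were not called. Of 23 genes of striatal medium spiny neurons, Arpp21 and Arpp19 alone were called, both lower. The count of lower genes was 1 without BB707, 0 without BB708 and 0 on 1.0ST arrays, and without BB703 2 were lower and 1 higher. Ppp1r1b (-0.40, SE 0.16) and Drd1 (-0.34, SE 0.15) were lower by more but with a wider error. Their list ran from a median of -0.81 in BB707 to 0.29 in BB702.

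Fewer of these were called without BB707 or BB708. Without BB707 4 of the telencephalic factors and 8 of the postsynaptic genes were called lower, and without BB708 3 and 2. The medians stayed negative, at -0.18 and -0.17 without BB707 and at -0.24 and -0.21 without BB708. The 12 largest lower differences with 8 of 8 mice in one direction ran from -0.46 to -0.38. They held the RNA-binding protein gene Celf2 (-0.40, SE 0.07), the channel subunit gene Kcnv1 (-0.38, SE 0.09), the peptide receptor gene Vipr1 (-0.42, SE 0.10) and Wnt2 (-0.39, SE 0.09). For Sla and 5730522E02Rik alone among the 12 did the groups not overlap, with forebrain levels of 7.20 to 7.70 and 6.75 to 6.99 and whole-brain levels of 6.37 to 7.17 and 5.98 to 6.71.

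Immediate early genes, which neurons switch on with activity, were lower for 5 of 16 measured and higher for 0, with a median of -0.28. In hindbrain the list lay lower still, with medians of -1.20 to -0.70 over the mice against mean forebrain. Whether activity differed was not tested. Nr4a1 differed by -0.41 (SE 0.08, lower in 8 of 8 mice, FDR = 0.008), Egr3 by -0.35 (SE 0.10) and Nptx2 by -0.29 (SE 0.08). Egr3 was also counted among the telencephalic factors above. Fos (-0.12, SE 0.05) and Arc (-0.27, SE 0.09) were not called. The median of the list was -0.74 in BB707 and -0.58 in BB685, and between -0.28 and -0.08 in the other 6. Without BB707 2 were called and without BB708 1.

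Of 302 clusters at miRNA loci, 2 were called higher and 11 lower (4.30%, against 7.04% of all transcripts). Lower calls outnumbered higher ones here, whereas 5.13% of all transcripts were called higher and 1.90% lower. The clusters measure the transcribed locus and not the mature miRNA, which these arrays do not resolve. The 2 loci that give miR-128 and 2 of those that give miR-9, both rich in forebrain neurons, were lower. Mir219a-2, of oligodendrocytes, and Mir135a-2 were higher. The mature sequences are shown since each pair of loci gives 1 sequence, with the seed (bases 2 to 8) in capitals, from RefSeq on GRCm38.p6.
miR-128-3p: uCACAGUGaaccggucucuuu
miR-9-5p: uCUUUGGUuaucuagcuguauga
miR-219a-5p: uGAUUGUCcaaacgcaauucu
miR-135a-5p: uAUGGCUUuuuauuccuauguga
No 2 of these 4 share a seed. Mir128-1 and Mir128-2 lie on chromosomes 1 and 9 (mature miRNA at chr1:128202404-128202424 on the plus strand and chr9:112118644-112118664 on the minus strand), and their clusters differed by -0.39 (SE 0.11, FDR = 0.045) and -0.43 (SE 0.08, FDR = 0.0053). Mir128-2 read 6.80 to 7.30 in forebrain and 6.28 to 6.92 in whole brain, lower in 8 of 8 mice. Mir9-1 on chromosome 3 and Mir9-3 on chromosome 7 differed by -0.22 (SE 0.06) and -0.21 (SE 0.06), and neither was called without BB707 or without BB708. Mir219a-2 on chromosome 2 was higher by 0.41 (SE 0.08, FDR = 0.011, 7 of 8 mice), and Mir135a-2 on chromosome 10 by 0.37 (SE 0.06, FDR = 0.0024, 8 of 8 mice). The Mir135a-2 cluster was dim, at 3.27 to 3.80 in forebrain and 3.64 to 4.25 in whole brain. Other loci called, all lower, were Mir16-1, Mir26a-1, Mir221, Mir337, Mir350, Mir378a and Mir690, from -0.34 to -0.24. On the 1.0ST arrays Mir378a differed by 0.01 and was not called.

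Oligodendrocyte and myelin genes were likewise mostly higher. Of 28 measured, 26 were higher and 0 lower, and the median difference was 0.38. The median over the list was above 0 in each mouse, from 0.17 in BB703 to 0.71 in BB707. Klk6, a protease of mature oligodendrocytes, had forebrain levels of 6.74, 7.02 and 7.34 and whole-brain levels of 8.07, 8.40 and 8.83, and the difference was 1.40 (SE 0.10, FDR = 1.9e-05). The groups did not overlap for Klk6, Hapln2 (0.60, SE 0.06), Aspa (0.55, SE 0.06) or Ermn (0.54, SE 0.07). The core myelin genes moved less, Mog by 0.46 (SE 0.06), Mag by 0.47 (SE 0.08), Cnp by 0.37 (SE 0.06) and Mal by 0.22 (SE 0.05). Gpr17, of cells on the way to oligodendrocytes, was not called (0.10, SE 0.06). Without BB707 23 were higher, and without BB708 23. Genes of large axons and fast firing neurons were higher for 12 of 21 and lower for 0. Sncg (1.68, SE 0.15), the neurofilament gene Nefh (0.91, SE 0.08), Syt2 (0.81, SE 0.09) and Vamp1 (0.65, SE 0.05) led them, and none of the 4 overlapped between the groups.

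Of 22 measured astrocyte genes, 7 were higher and 1 was lower. Agt, the angiotensin precursor that astrocytes of brainstem and diencephalon make, had forebrain levels of 8.18, 8.50 and 9.34 and whole-brain levels of 9.65, 9.93 and 10.85, and the difference was 1.47 (SE 0.17, FDR = 0.00033). Itih3 (1.11, SE 0.14) and the GABA transporter gene Slc6a11 (0.64, SE 0.07) were also higher. Slc1a3, a glutamate transporter of astrocytes, was lower by a small amount (-0.14, SE 0.04, FDR = 0.046). The list held 0 lower calls without BB703, without BB707, without BB708, on 1.0ST arrays and in NOD/ShiLtJ. Aldh1l1 (0.10, SE 0.05), Slc1a2 (-0.06, SE 0.04) and Gfap (0.21, SE 0.07) were not called. Among 15 GABA-A receptor subunits, Gabrq (1.64, SE 0.25), Gabre (0.86, SE 0.12) and Gabrr2 (0.31, SE 0.09) were higher and Gabra2 (-0.16, SE 0.04) was lower. Without BB707 2 were higher and 0 lower, and without BB708 3 and 0. Gabrq was higher in 7 of 8 mice. In BB703 it read 6.88 in forebrain and 6.71 in whole brain, whereas the other forebrains read 4.88 to 5.96.

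**Figure D4:**
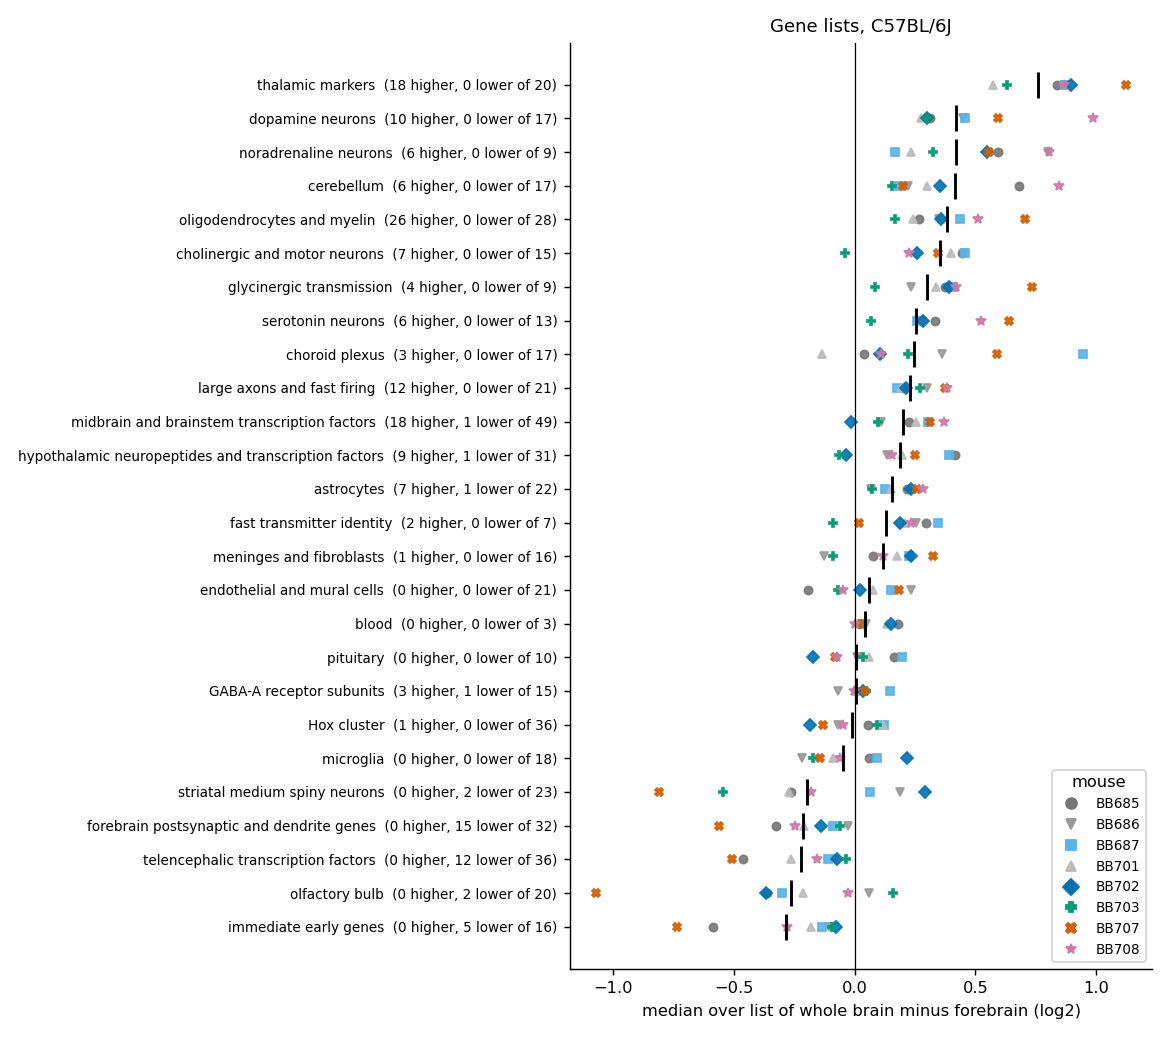
Median whole brain minus forebrain (log2) over each gene list, 1 symbol per C57BL/6J mouse, with the median of the mean differences as a black bar. Labels give how many measured members were called higher and lower. Thalamic and myelin lists lie above 0 in all 8 mice, and the olfactory bulb list reaches -1.07 in BB707.

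Lists for cells or tissue that dissection could add were read in the same way. Microglial genes (18 measured), endothelial and mural genes (21), pituitary genes (10) and blood genes (3 of 8 listed) held 0 calls, and their medians ran from -0.05 to 0.06. Over all transcripts 7.04% were called, so 0 calls in lists this short show little about these tissues. Of 16 meningeal genes 1 was higher, Aldh1a2 (0.37, SE 0.08), a share close to the 5.13% of all transcripts. The count was 0 without BB707 or without BB708 and 3 without BB703. Of 17 choroid plexus genes 3 were higher, Otx2 (1.03, SE 0.17), Clic6 (0.46, SE 0.13) and Cldn2 (0.24, SE 0.06), and Otx2 is also a midbrain and thalamic factor. Without BB707, and likewise without BB708, 1 of the 17 was called. Ttr, the most abundant product of the choroid plexus, read 11.87 in forebrain and 12.15 in whole brain on average and was not called (0.28, SE 0.10, FDR = 0.085). The choroid plexus list ran from -0.13 in BB701 to 0.94 in BB687. Of 17 cerebellar genes 6 were higher, led by Zic1 (1.11, SE 0.14) and Cbln1 (1.06, SE 0.15), which thalamus and brainstem also express. The granule cell genes Gabra6 (0.86, SE 0.30) and Cbln3 (0.74, SE 0.23) and the Purkinje cell gene Pcp2 (0.19, SE 0.12) were not called, with differences in BB708 of 3.51, 2.66 and 1.11. Without BB708 6 of the cerebellar genes were higher and 0 lower. Without BB703 6 were higher and 1 lower, and without BB707 5 were higher. The part of cerebellar RNA in the other differences of BB708 was not tested.

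Olfactory bulb genes varied more between mice than between sample types. Of 20 measured, 2 were lower, Synpr (-0.26, SE 0.07) and Reln (-0.26, SE 0.07), and 0 higher. Cdhr1, of mitral and tufted cells, had forebrain levels of 7.12, 7.53 and 8.54 and whole-brain levels of 6.11, 7.29 and 8.04. Its difference was -0.48 (SE 0.27, FDR = 0.26), and it ran from -2.40 in BB707 to 0.92 in BB703. The median over the list was -1.07 in BB707 and between -0.37 and 0.16 in the other mice. BB707 had both the highest list level in forebrain and the lowest in whole brain, 0.48 above and 0.72 below the mean forebrain. Without BB707 0 of the 20 were called, and without BB703 5 were called lower.

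The NOD/ShiLtJ arrays, which share no mouse with the C57BL/6J arrays, gave the same comparison again. There 1517 transcripts were called (5.36%), 1104 higher (3.90%) and 413 lower (1.46%). Of the 1453 called higher in C57BL/6J, 1422 had a higher mean in NOD/ShiLtJ whole brain (97.9%, against 52.3% of all transcripts), and 731 were called higher there. Of the 539 called lower, 505 had a lower mean (93.7%, against 47.7% of all), and 156 were called lower. These 731 and 156 were 66.2% and 37.8% of the NOD/ShiLtJ calls in their direction. The count called in opposite directions was 0. The hindbrain minus forebrain contrast of NOD/ShiLtJ, in which 28.2% of transcripts were called higher and 21.4% lower, held 1379 of the 1453 among its higher and 468 of the 539 among its lower calls. It held 13 of the 1453 among its lower calls and 3 of the 539 among its higher ones.

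In NOD/ShiLtJ Glra1 differed by 3.39 (SE 0.28) and Slc6a5 by 3.85 (SE 0.28). Thalamic genes had smaller means there, with a list median of 0.45 and 14 of 20 called higher. Prkcd differed by 0.81 (SE 0.20) in NOD/ShiLtJ, which is 1.35 less than in C57BL/6J (95% interval of the strain difference -1.94 to -0.77), but the test over all transcripts did not call it (FDR = 0.74). Striatal genes were called lower for 13 of 23 in NOD/ShiLtJ. Choroid plexus genes had a list median of -0.17 there against 0.25 in C57BL/6J, with 0 called in NOD/ShiLtJ, and Clic6 differed by -0.29 against 0.46. For the test of the strain difference in limma, 0 transcripts were called (0%), the lowest FDR was 0.67, and 941 had an unadjusted p under 0.05 (3.32%). The Benjamini-Hochberg adjustment also gave 0. This does not show that the strains were alike, and the intervals of single genes were wide, as for Slc6a5 (-0.54 to 1.78).

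**Figure D5:**
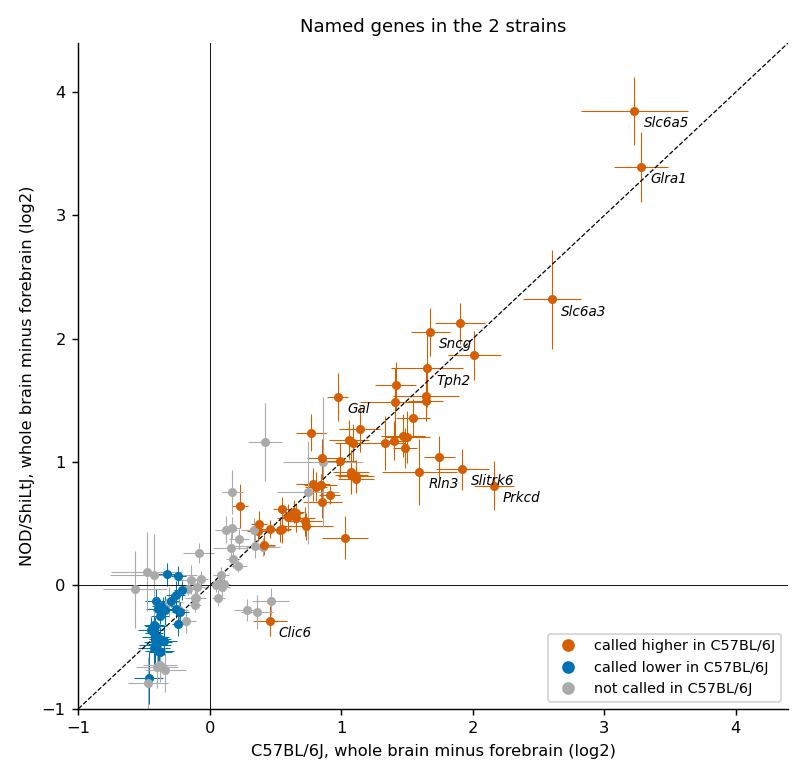
Whole brain minus forebrain (log2, mean with standard error as bars) in C57BL/6J against NOD/ShiLtJ for 122 named genes, with the dashed line where both are equal. Orange points were called higher and blue points lower in C57BL/6J, and grey points were not called. Prkcd and Slitrk6 lie furthest below the line among the genes called, and Slc6a5 and Glra1 lie at the top.

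Pooling the treatments was tested in the same way. The difference between whole brain and forebrain was compared between 4 clozapine and 4 vehicle mice, and limma called 0 transcripts (0%), with a lowest FDR of 0.19 and 1351 with an unadjusted p under 0.05 (4.77%). The Benjamini-Hochberg adjustment gave 0. With 4 mice in each group, this does not show that the treatments were alike. The samples that stood apart fell unevenly, BB707 and BB708 among the vehicle mice and BB703 among the clozapine mice. Prkcd differed by 0.79 less and Slc6a3 by 0.58 less in the clozapine mice, and Glra1 by 0.25 less, none of them called.

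The same RNA had also been run on 1.0ST arrays. There 1308 transcripts were called (4.62%), of which 1063 were called on 1.1ST in the same direction and 0 in the opposite one. The shared calls were 53.4% of the 1.1ST calls and 81.3% of the 1.0ST calls, with a median size of 0.33 on 1.1ST and 0.26 on 1.0ST. Slc6a5 differed by 2.26 on 1.0ST, Glra1 by 2.69, Slc6a3 by 1.63 and Prkcd by 1.81. The mean position of the whole brains on 1.0ST was 24.3%.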

How the data were processed

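RNA of each sample was hybridised to 1 Affymetrix 1.1ST and 1 Affymetrix 1.0ST array. The deposited values are log2 intensities per transcript cluster, which the authors made with RMA in Affymetrix Expression Console 1.1. The authors dropped clusters without mRNA annotation. The values were used as deposited, with no further filter. Genome build and probe annotation of that step are not given in the sources used here. Array medians ran from 6.47 to 6.61 over the 16 arrays, correlations between arrays from 0.992 to 0.998, and the number of mice limits the precision. The mice are separate animals. limma 3.58.1 (R 4.3.3, statmod 1.5.0) was fitted to the 16 arrays of the 1.1ST format with the mouse as a block, and the FDR followed the study's formula, with an estimated share of unchanged transcripts of 0.690. The surrogate variables of the study were an alternative only. Numbers pair samples because they name the mouse. Deviations of same-mouse samples correlated at 0.109 on average (-0.015 between different mice). Symbols came from platform annotation. Of the clusters, 21207 had 1 symbol, 1867 several and 5236 none, and 111 with conflicting symbols were left unnamed. More than 1 cluster was present for 1295 genes. List members were each read from 1 cluster, the one with the highest mean over the 16 arrays.

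The genes named were the 12 largest called differences per direction with 1 symbol and the same direction in 8 of 8 mice, up to 4 largest members of each list, and tissue checks. miRNA loci and further list members were chosen after their values were seen. Members and gene lists were chosen with earlier results of these data known. Alternatives were surrogate variables, other adjustments, filters, scalings and weights, the other array format, no block, each treatment alone and leaving out mice. Programs were tested on simulated data. Array run and hemisphere were not in the labels, so neither could be fitted.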

Additional observations from a re-analysis of the deposited data

Results flagged for a closer look

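Of 166 values checked for a single mouse far from the other 7, 13 stood apart (7.83%). For independent values chance marks about 1 in 20. These values came from the same mice, and genes overlapped with lists, so the share cannot be set against that rate. BB703, BB707 and BB708 gave 4 each and BB685 gave 1. The causes were not tested.

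In BB707 the whole brain lay at 53.5% of the way from forebrain to hindbrain, against a median of 24.3% over the 8 mice. The olfactory bulb list had a median difference of -1.07 in this mouse, Kcnj4, an inward rectifier potassium channel gene, differed by -1.40, and the receptor subunit gene Gabre by 1.78. In BB703 the forebrain lay at 15.4%, the cholinergic and motor neuron list had a median of -0.0413, Gal differed by 0.42, and the choline transporter gene Slc5a7 by -0.29, against 0.88 at the median mouse. In BB708 the cerebellar genes Gabra6, Cbln3 and Pcp2 differed by 3.51, 2.66 and 1.11, and the median of the dopamine neuron list was 0.99. In BB685 the Mir9-3 locus differed by -0.62, against a median of -0.19.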

How the results depend on the processing

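No setting gave a call in the opposite direction. Of the 86 named genes called, 49 stayed called in each of a subset of the settings. These were 1.0ST arrays, median centring, surrogate variables, no block and leaving out each mouse in turn. The 49 were not followed in the other settings. The count of calls fell from 1992 to 1308 on 1.0ST arrays, 475 in the vehicle mice alone (450 higher, 25 lower), 110 in the clozapine mice alone (109 higher, 1 lower) and 1123 without BB703 and BB707 (890 higher, 233 lower), the last chosen after seeing the data. Calls lower in whole brain, 539 in the report, were 263 with 5 surrogate variables, 330 with the Benjamini-Hochberg adjustment, 330 on 1.0ST arrays, 840 among transcripts with a mean above 5 and 1423 with median centring. Leaving out 1 mouse gave 847 to 2107 calls, 739 to 1528 higher and 108 to 598 lower. Beside BB707 and BB708, counts moved by over 1.5 times without BB685 (1258 calls, 224 lower), BB702 (1299, 316 lower) and BB701 (268 lower). The mean position of the whole brains ran from 22.7% to 28.2% with 1 mouse left out, and was 24.3% on 1.0ST arrays and 29.2% over transcripts that differed by at least 0.5 in NOD/ShiLtJ. With no replicate block, so that the pairing by mouse was ignored, 1824 were called, 1383 higher and 441 lower. Strain and treatment differences had 0 calls in every setting run, with lowest FDR values of 0.095 to 1.00 and 0.094 to 0.998. Signs changed only for values near 0 or not called, and for Mir378a on 1.0ST arrays (0.0054). With surrogate variables these were Hoxb5 (-0.0048), Fech (-0.0166), Pcp2 (-0.121) and Cldn5 (-0.0115). On 1.0ST arrays they were Tagln (0.0029), Slc4a1 (0.0049), Cldn5 (-0.0224) and Prl (-0.0150). Leaving out 1 mouse moved Tagln from -0.189 to 0.0118 (above 0 without BB703), Gh from -0.0734 to 0.0244 (above 0 without BB702 or BB707) and Prl from -0.0285 to 0.116 (below 0 without BB685 or BB687). Of the medians of the 26 lists, 336 values moved by less than the spread between mice, and 2 by more, for cholinergic and motor neurons on 1.0ST arrays (0.18) and cerebellum with surrogate variables (0.09). Most of these values left out 1 mouse, which by construction moves a median little against that spread. The count is therefore no measure of stability, and the number of calls in several lists changed more.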

Other observations

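A few genes called higher in C57BL/6J whole brain were called lower in NOD/ShiLtJ hindbrain than in NOD/ShiLtJ forebrain. Clic6, a chloride channel gene of the choroid plexus, was higher by 0.46 (SE 0.13) in whole brain and differed by -0.86 (SE 0.27) between NOD/ShiLtJ hindbrain and forebrain. Its means in C57BL/6J were 6.83 (forebrain), 7.29 (whole brain) and 6.26 (hindbrain), so the whole brain lay outside the range of both pieces. The phosphatase gene Ptpn3 was represented by 8 such clusters, with whole-brain differences of 0.26 to 0.33 and NOD/ShiLtJ hindbrain differences of -0.36 to -0.21. Its C57BL/6J hindbrain means lay above those of forebrain for each of the 8. The clusters carry 1 symbol and may share sequence, so they are not independent. Rasd1 differed by 0.35 (SE 0.08) and by -0.22 (SE 0.08). Acp6 ran the other way, with -0.27 (SE 0.07) in whole brain and 0.14 (SE 0.06) in NOD/ShiLtJ hindbrain.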
